A study of Mus musculus with 14 samples.

Results

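The collagen genes of the mouse were examined for H3K27me3, a repressive histone mark (histone H3 trimethylated at lysine 27), in primary hippocampal neurons with and without knockdown of the long noncoding RNA NeuID. A gene was a member when its annotation in GENCODE M21 was protein-coding and its symbol was Col, a number, the letter a and a number, which gave 44 of 21951 protein-coding genes. A peak belonged to a gene when it overlapped the gene body or the 5 kb on either side, on the mm10 build. Of the 44 genes, 31 had at least 1 peak, and together they held 83 of the 23668 listed peaks. One of these peaks lay in the windows of both Col4a5 and Col4a6, so that there were 84 pairs of a gene and a peak. The cultures were wild type (WT) hippocampal neurons from CD1 mouse embryos (E17) of mixed sex, taken after the meninges had been stripped off. Control cultures received control gapmers and knockdown cultures received gapmers against NeuID, in both cases carried by lipid nanoparticles. Gapmers are short oligomers with a DNA core that pair with an RNA and direct its cleavage. The labels name 6 control and 6 NeuID knockdown libraries from chromatin immunoprecipitation with sequencing (ChIP-seq), and 1 input library for each condition.

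Collagens are secreted or membrane-bound proteins of the extracellular matrix, built from 3 chains that wind into a triple helix. Fibrillar collagens form the cables of connective tissue, network-forming collagens form the sheets of basement membranes, and other classes decorate fibrils, form beaded filaments or sit in the cell membrane. In the brain, most collagen is made by fibroblasts of the meninges and by cells of the blood vessels, while some transmembrane and fibril-associated collagens are made by neurons. H3K27me3 is laid down by Polycomb repressive complex 2, marks genes that are held silent in a cell type, and gathers at gene starts that are rich in CG pairs.

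For each peak the table gave the log2 mean of normalized reads over all libraries, over the control libraries and over the knockdown libraries. It held no value per library. For this reason each value is a mean with no SD and no n of its own, the depth of single libraries is unknown, and no test between the groups could be made. The overall mean was reached from the group means with a weight of 0.545 on the control, which is the weight of 6 control and 5 knockdown libraries, so that 11 of the 12 labelled libraries stood behind the means. A group mean of 1 normalized read or less was listed at 0, which makes a difference against it a lower bound. Differences were taken as knockdown minus control on the log2 scale, and a difference beyond 1, which is 2-fold, was counted as lower or higher and set beside the same count over all peaks or genes.

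H3K27me3 peaks were frequent in collagen genes. The share of genes with a peak was 70.5% for collagen genes and 28.0% for all protein-coding genes. Collagen genes were also long, with a median of 114 kb against 17.4 kb for all protein-coding genes, and per length of window the gap was smaller, at 14.5 peaks per Mb against 11.8. Collagen genes with a peak had a median length of 121 kb and those without had 45.8 kb. At gene starts the window is the same for all genes, and there 16 of 44 collagen genes (36.4%) had a peak within 1 kb, against 9.78% of all protein-coding genes. These 16 were the fibrillar genes Col1a2, Col2a1, Col5a1 and Col27a1, the fibril-associated genes Col9a2, Col12a1, Col14a1 and Col19a1, the network genes Col4a5, Col4a6 and Col8a2, the endostatin-type genes Col15a1 and Col18a1, the transmembrane gene Col13a1, the beaded filament gene Col6a6, and Col26a1. The 13 genes with no listed peak were Col3a1, Col4a2, Col4a4, Col5a2, Col6a1, Col6a2, Col7a1, Col9a1, Col10a1, Col11a1, Col11a2, Col16a1 and Col17a1. Partner chains of 1 molecule were split between these groups. For type I collagen, Col1a2 had a peak at its start while the peaks of Col1a1 lay 2324 bp before and 1887 bp after its start. For type VI collagen, Col6a3 held 5 peaks while Col6a1 and Col6a2 held none.

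**Figure D1:**
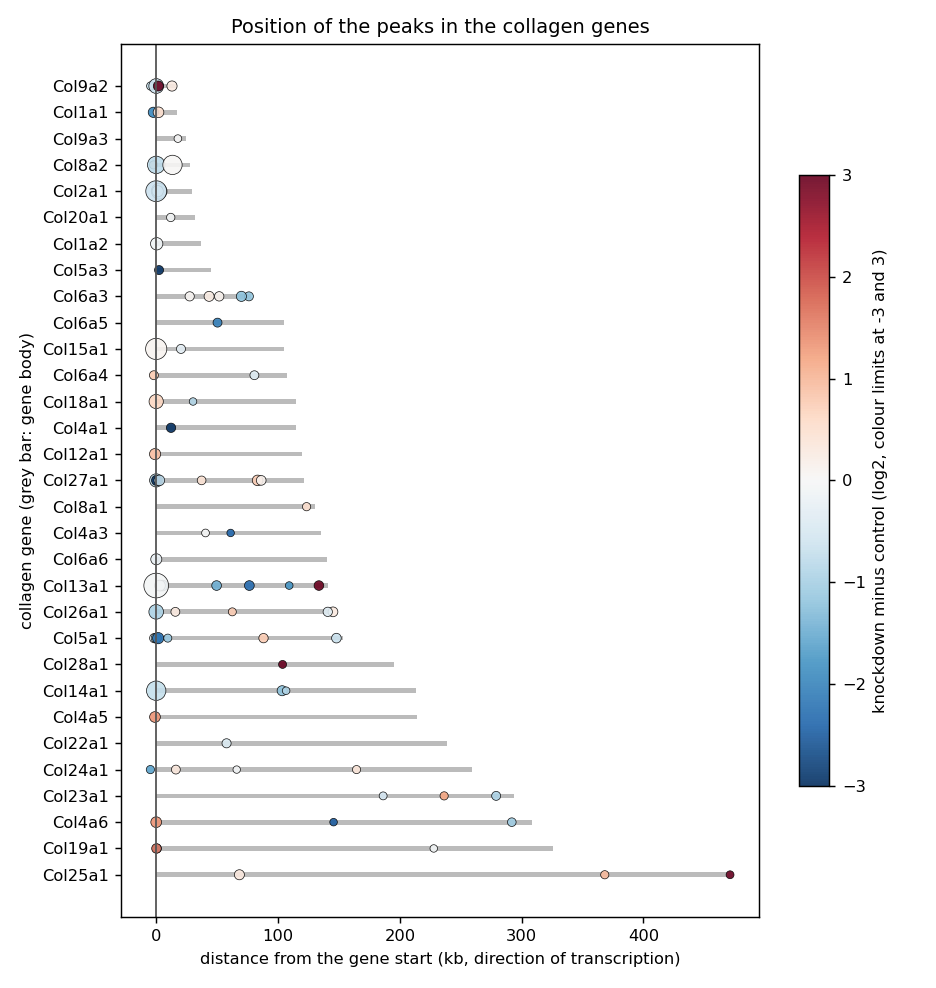
Position of each peak along the 31 collagen genes with a peak, with distance from the gene start in kb on the x axis and gene on the y axis in order of length. Grey bars are gene bodies, points are peaks, the area of a point grows with the overall mean of normalized reads, and colour is knockdown minus control (log2). Most of the largest points sit at or near 0 kb, and a further large point lies 13.4 kb into Col8a2. Most other points inside the gene bodies are small.

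The bases before the gene starts were read from the RefSeq promoter table on GRCm38.p6, in which 33 of the 44 genes had an entry within 1 kb of the GENCODE start. CG pairs (the letters CG, which read the same on both strands) were counted in the 250 bases before each start. Among 11 genes with a peak at the start the median was 10 pairs, with a range of 3 to 28, and 8 of the 11 (72.7%) held 10 or more. Among 12 genes with no listed peak the median was 6.5 pairs, with a range of 0 to 26, and 4 (33.3%) held 10 or more. Over all 14265 protein-coding genes with an entry the share with 10 or more was 56.8%, and it was 66.5% for those with a peak at the start and 55.7% for those with no peak. The collagen promoters with a peak at the start thus ranged from poor to rich in CG pairs, and so did those without a peak. The following windows of 250 bases hold few or many CG pairs, written 5′ to 3′ on the strand of the gene with CG pairs in capitals. They are Col4a6 (chrX:141474077-141474326, minus strand, 3 CG pairs) and Col5a1 (chr2:27886175-27886424, plus strand, 28 pairs), which had a peak at the start, and Col3a1 (chr1:45311288-45311537, plus strand, 0 pairs) and Col16a1 (chr4:130047590-130047839, plus strand, 21 pairs), which had no peak. Col4a2, with 26 pairs, is not shown because its window overlaps the UTR of Col4a1.
Col4a6: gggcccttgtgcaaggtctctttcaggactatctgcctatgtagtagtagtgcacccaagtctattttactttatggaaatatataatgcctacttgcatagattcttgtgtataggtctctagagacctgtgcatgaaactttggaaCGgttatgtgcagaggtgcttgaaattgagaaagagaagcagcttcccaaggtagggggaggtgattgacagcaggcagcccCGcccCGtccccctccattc
Col5a1: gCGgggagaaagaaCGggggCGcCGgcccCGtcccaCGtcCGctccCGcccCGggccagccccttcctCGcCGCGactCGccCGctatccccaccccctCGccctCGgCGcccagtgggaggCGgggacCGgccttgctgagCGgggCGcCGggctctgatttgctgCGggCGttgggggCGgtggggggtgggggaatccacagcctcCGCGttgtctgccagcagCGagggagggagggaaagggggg
Col3a1: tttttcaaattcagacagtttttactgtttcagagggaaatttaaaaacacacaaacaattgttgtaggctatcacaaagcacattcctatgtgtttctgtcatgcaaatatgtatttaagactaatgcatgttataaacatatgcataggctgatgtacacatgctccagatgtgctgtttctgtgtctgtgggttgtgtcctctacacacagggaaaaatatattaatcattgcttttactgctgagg
Col16a1: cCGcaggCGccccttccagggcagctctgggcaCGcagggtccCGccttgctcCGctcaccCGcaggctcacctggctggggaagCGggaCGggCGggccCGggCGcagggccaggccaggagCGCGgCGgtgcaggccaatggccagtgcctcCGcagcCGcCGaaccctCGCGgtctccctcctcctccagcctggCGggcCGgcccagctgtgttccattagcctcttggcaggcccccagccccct
The Col4a6 window lies wholly inside the peak whose nearer edge is 995 bp from the start of Col4a5. Col3a1 encodes the single chain of type III collagen of vessel walls and loose connective tissue, and Col16a1 encodes a fibril-associated collagen.

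**Figure D2:**
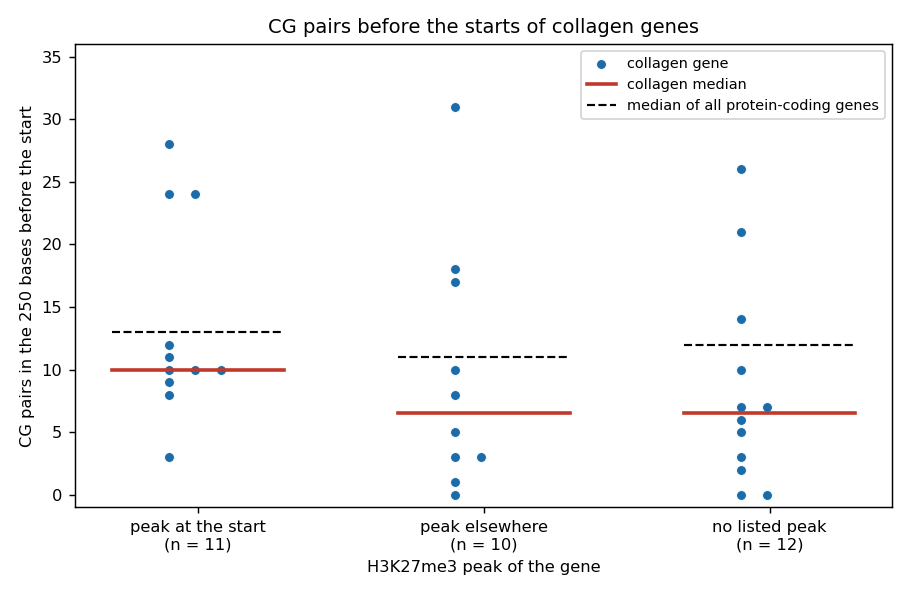
Number of CG pairs in the 250 bases before the start (y axis) for 33 collagen genes, grouped by whether a peak lay at the start, elsewhere in the window or nowhere (x axis). Blue points are genes, red lines are collagen medians (10, 6.5 and 6.5) and dashed lines are the medians of all protein-coding genes (13, 11 and 12).

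Peaks at the starts differed from the other collagen peaks in form. The 18 peaks within 1 kb of a start had a median width of 747 bp, and 8 of them were at least 1 kb wide. The 65 peaks elsewhere had a median width of 398 bp, and 1 reached 1 kb, the peak 13.4 kb into Col8a2. A start here is the outermost annotated start of the gene. Some peaks counted as elsewhere, at Col1a1, Col2a1, Col6a3, Col8a2, Col9a2 and Col9a3, lay within 1 kb of the start of another transcript of the gene. The wide Col8a2 peak was among these. Per 100 bases, start peaks held a median of 4.98 CG pairs, the other collagen peaks held 1.16 and all listed peaks held 1.23. Median GC content was 59.0% at starts and 49.3% elsewhere. By annotation, 23 of the 83 peaks touched a coding exon, 5 others touched a UTR exon and 4 others a non-coding exon. A further 40 lay in introns without touching an exon, 9 lay upstream of the gene and 2 downstream. The peak shared by Col4a5 and Col4a6 was counted among the 9, as upstream of Col4a5, although it touches a coding exon of Col4a6. In 2 peaks (2.41%) repeats covered over 50% of the bases, against 7.70% of all peaks.

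Over the 83 peaks, H3K27me3 was lower after NeuID knockdown more often than higher. The lower share was near that of all peaks, while the higher share was below it. In 21 peaks (25.3%) the knockdown mean was lower by more than 1, where 20.6% of all peaks were, and in 8 peaks (9.64%) it was higher, where 20.4% of all peaks were. The other 54 lay within 1 of the control. The 21 lower peaks lay in 13 genes, the 8 higher peaks in 9 (the shared peak counts for both genes), and 3 genes held both. The median difference was -0.20, with quartiles at -1.01 and 0.36, against a median of -0.02 and quartiles of -0.80 and 0.77 for all peaks. Summed over the 48.9 kb that the peaks covered, the control mean was 1073 normalized reads and the knockdown mean 899, which is 83.8% of the control, while the sum over all peaks came to 97.1%. Peaks are not replicates, several share a gene, and the spread between libraries is not known, so these figures describe the listed means.

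**Figure D3:**
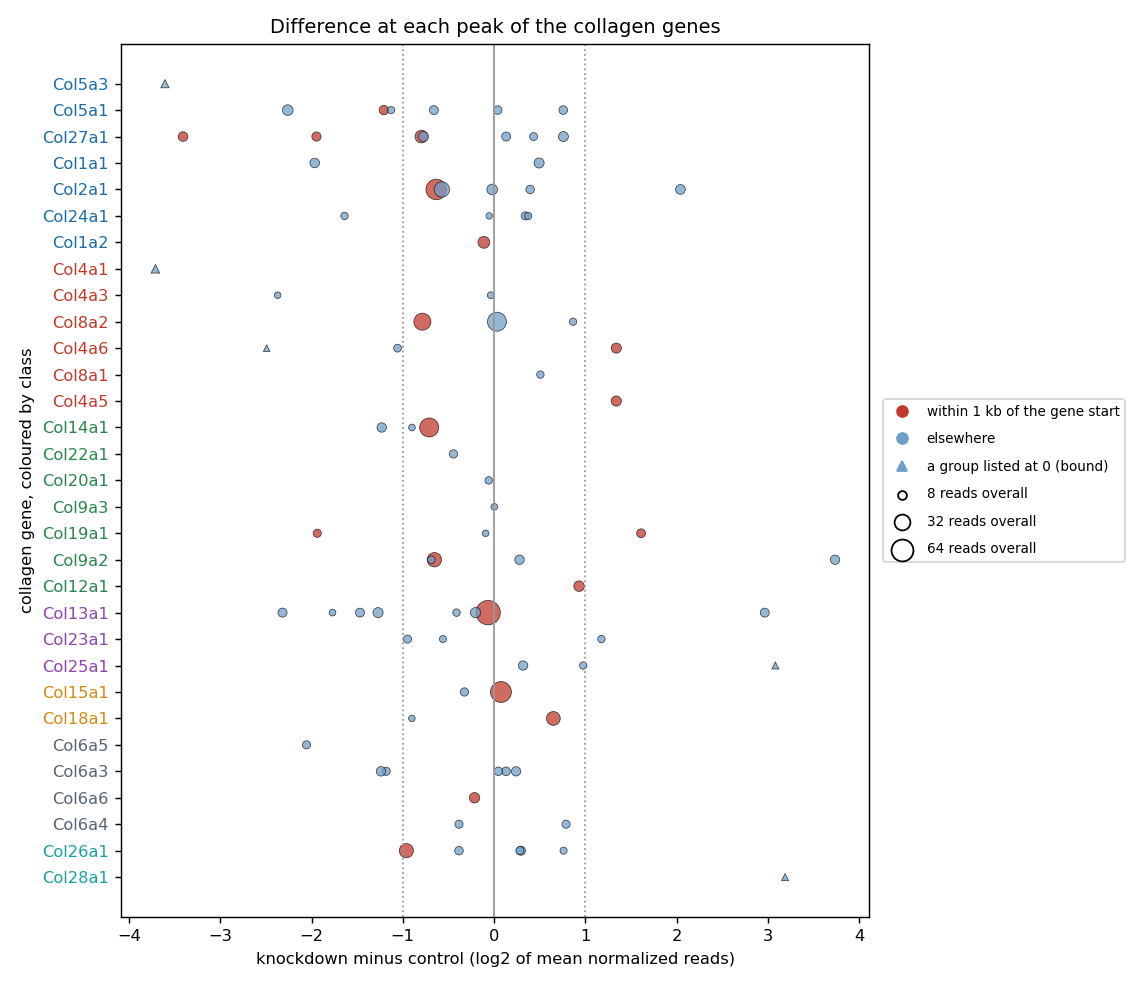
Knockdown minus control (log2) at each peak (x axis) of the 31 collagen genes (y axis, coloured by class as in the plot of levels by gene). Red points are peaks within 1 kb of the gene start, blue points are other peaks, triangles have a group listed at 0 and are bounds, point area grows with the overall mean, and dotted lines mark -1 and 1. The 21 lower and 8 higher peaks lie outside the dotted lines, and the large points lie between them.

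Differences beyond 1 were found only at the weaker collagen peaks. An overall mean of at least 4 on the log2 scale, which is 16 normalized reads, was reached by 12 collagen peaks. None of these was lower or higher by more than 1, where 9.12% of all peaks of that strength were lower and 5.02% higher. Their differences ran from -0.96 to 0.65 with a median of -0.60, and 9 of the 12 were below 0. For all 3344 peaks of that strength the median was -0.11 and the quartiles were -0.52 and 0.28. The sum over the 12 peaks was 517 normalized reads in the control and 412 in the knockdown, or 79.7%. All 21 lower and all 8 higher collagen peaks were among the 71 weaker ones, and over all weaker peaks 22.5% were lower and 22.9% higher.

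**Figure D4:**
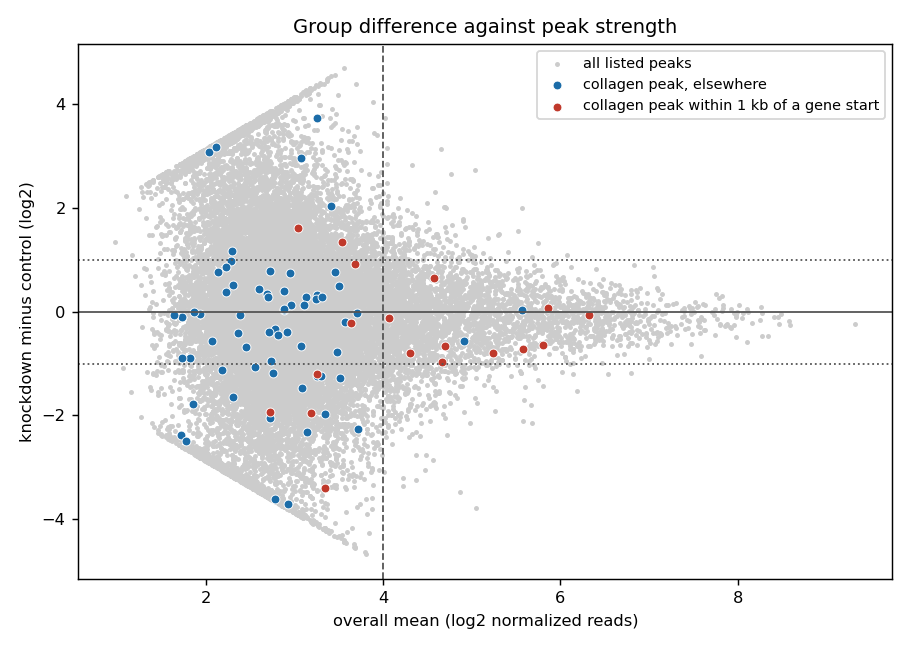
Knockdown minus control (log2, y axis) against the overall log2 mean of normalized reads (x axis) for all 23668 peaks (grey) and the collagen peaks (red within 1 kb of a gene start, blue elsewhere). Dotted lines mark differences of -1 and 1 and the dashed line an overall mean of 4. The grey cloud narrows from left to right, and right of the dashed line the 12 collagen peaks lie between -0.96 and 0.65.

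Most of the strong peaks sat on gene starts. At 10 starts of that strength, the median difference was -0.64 and 8 were below 0. The 1126 equally strong peaks at all protein-coding starts had a median of -0.05, quartiles of -0.42 and 0.33, and 53.8% below 0. Within the 10 collagen starts the differences were not uniform. At Col26a1, Col27a1, Col8a2, Col14a1, Col9a2 and Col2a1 they lay between -0.96 and -0.63. At Col1a2, Col13a1 and Col15a1 the means were within 0.11 of each other, and at Col18a1 the knockdown mean was the higher by 0.65. The 8 weaker start peaks were more spread, with 4 lower and 2 higher, and ranged from -3.41 at Col27a1 to 1.61 at Col19a1. Over all 18 start peaks the sums were 522 and 413 normalized reads, a share of 79.0%, and over the 65 other peaks they were 550 and 486, a share of 88.3%.

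For each gene the peaks were joined by the log2 ratio of the summed means. On this measure 3 of 31 genes were lower by more than 1 and 2 were higher, where 13.8% of all protein-coding genes with a peak were lower and 17.6% higher. The median over the 31 genes was -0.17 and 19 were below 0, against a median of 0.02 for all genes. The 3 lower genes were Col4a1, Col5a3 and Col6a5 and the 2 higher were Col28a1 and Col4a5. Each of the 5 rested on 1 weak peak. Among genes with 1 peak, 20.5% of all protein-coding genes were lower and 25.4% higher, and the collagen genes gave 3 and 2 of 12. Among genes with 3 or more peaks, 2.72% were lower and 3.28% higher, and the 14 collagen genes gave none of either. These 14 had a median of -0.25, 10 of them below 0, and ran from -0.80 at Col14a1 to 0.99 at Col25a1. The sign of a gene could depend on how its peaks were joined. With the widest peak alone it changed at Col6a3, Col8a2, Col9a2, Col19a1, Col24a1 and Col27a1, and with the median of the peaks at those genes other than Col27a1 and at Col4a6, Col15a1, Col18a1 and Col26a1.

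**Figure D5:**
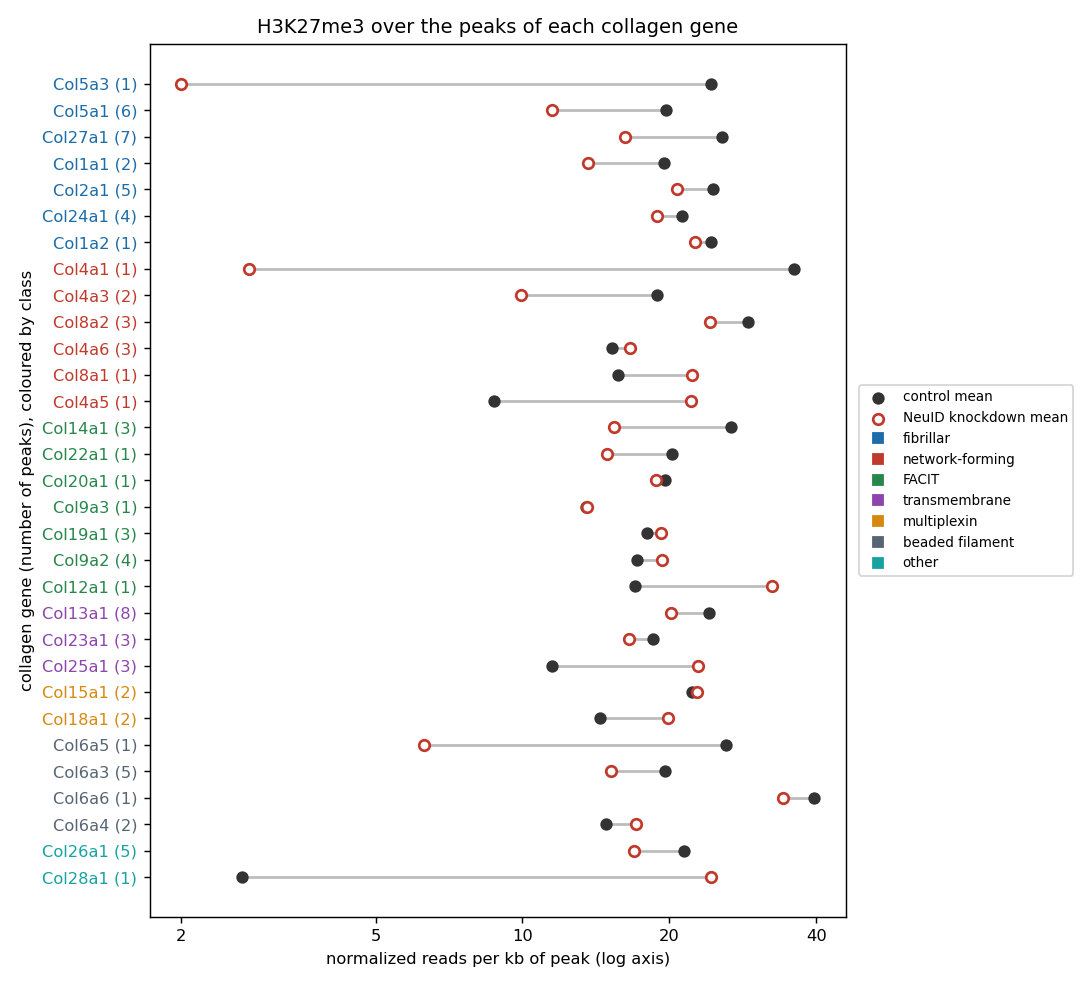
Normalized reads per kb of peak (x axis, log scale) in the control (filled) and NeuID knockdown (open) means for each of the 31 collagen genes (y axis, number of peaks in brackets), grouped by class. Group means listed at 0 are drawn at 1 read. Most genes lie between 10 and 40 reads per kb, and the widest gaps are at Col5a3, Col4a1, Col6a5 and Col28a1, which have 1 peak each.

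Fibrillar collagens had 11 genes, 7 with a peak and 4 with a peak at the start. In all 7 the summed mean was lower in the knockdown, where 49.2% of all protein-coding genes with a peak were below 0. The ratio was near 0 at Col1a2 (-0.11) and Col24a1 (-0.17), and Col5a3 had 1 peak, listed at 0 in the knockdown. Over the class the sum went from 355 to 253 normalized reads, a log2 ratio of -0.49. Of the 26 peaks, 8 were lower by more than 1 and 1 was higher. Over all peaks 20.6% were lower and 20.4% higher, shares that also stand beside the peak counts of the classes below. The class lost its one-sided sign in 2 genes when the window was narrowed to the gene body, because Col1a1 and Col24a1 each held a lower peak upstream.

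Col27a1, a fibrillar collagen of cartilage with a shortened triple helix, held 7 peaks and went from 91.2 to 57.6 normalized reads in sum, a log2 ratio of -0.66. Its 3 start peaks lay side by side, separated by 168 and 132 bp, and all were lower in the knockdown. The first, 395 bp upstream, went from 13.8 to 3.57 normalized reads, the second, which covers the start, from 24.5 to 14.1, and the third, 434 bp inside the gene, from 17.3 to 1.63. The third peak (chr4:63214438-63215000) had the lowest difference, -3.41, of all collagen peaks with both groups above 0. Beyond 30 kb from the start 3 further Col27a1 peaks were slightly higher in the knockdown, by 0.13 to 0.76. Col5a1, a chain of type V collagen that sets the width of type I fibrils, held 6 peaks and had a ratio of -0.78, from 62.7 to 36.5 normalized reads. The peak over its start, next to the CG-rich window shown above, went from 12.9 to 5.56 normalized reads, a difference of -1.21. A wider peak 1607 bp into the gene went from 20.5 to 4.28, a difference of -2.26. In both genes every peak that was lower by more than 1 lay within 10 kb of the start.

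Col2a1, the chain of cartilage type II collagen, had the widest domain of the class, with 5 peaks between the start and about 4 kb inside. The peak over the start (chr15:98003460-98005684) went from 66.8 to 43.1 normalized reads and the peak 2397 bp inside from 35.4 to 23.8, with differences of -0.63 and -0.57. At the inner edge, 4200 bp from the start, the order was opposite, with 4.42 reads in the control and 18.2 in the knockdown, a difference of 2.04. The gene as a whole had a ratio of -0.24. Col1a2, a chain of type I collagen, had 1 peak just inside its start with 17.3 and 16.1 normalized reads. Col1a1, the other chain of type I collagen, had 15.3 and 3.92 reads at the upstream peak and 9.59 and 13.5 at the inner one, for a ratio of -0.51. The ratio below 0 at Col1a1 thus came from the upstream peak.

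Col24a1, a minor fibrillar collagen, had 4 weak peaks, 1 of them lower by 1.64 at 4755 bp upstream, and a ratio of -0.17. Col5a3, a type V chain, had 1 peak in an intron, 2332 bp from its start, with 12.2 normalized reads in the control and a listing of 0 in the knockdown, a difference of at least 3.61 towards lower. The weights of the overall mean place that unlisted knockdown mean at 0.522 reads.

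Fibril-associated collagens (FACIT), which sit on the surface of fibrils, had 9 genes, 7 with a peak and 4 with a peak at the start. Of their 14 peaks, 2 were lower and 2 higher, and the class ratio was -0.17. Col14a1, which binds type I fibrils in tendon and skin, had the lowest ratio among collagen genes with 3 or more peaks, -0.80. Its start peak (chr15:55306849-55308971) went from 58.0 to 35.5 normalized reads, a difference of -0.71, and a peak about 103 kb inside went from 12.9 to 5.50. All 3 of its peaks were lower in the knockdown. Col12a1, which is related to Col14a1, had 1 peak 912 bp upstream of the start with the opposite sign, at 9.11 and 17.4 normalized reads, a difference of 0.93.

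Col9a2, a chain of type IX collagen of cartilage, held the highest difference among collagen peaks with both groups above 0. Its start peak went from 31.2 to 19.9 normalized reads, a difference of -0.65. The next peak, 571 bp away and 1771 bp into the gene (chr4:121041156-121041628), went from 1.45 to 19.3 normalized reads, a difference of 3.74. The gene ratio, over 4 peaks, was 0.17. Col19a1, a collagen made by interneurons of the hippocampus, had 2 start peaks 132 bp apart with 9.98 and 2.61 reads in the first, and 4.26 and 13.0 in the second. These are differences of -1.94 and 1.61, which left a gene ratio of 0.09. Col9a3, Col20a1 and Col22a1 had 1 peak each and ratios of 0.0032, -0.06 and -0.45, with no group mean above 8.02 normalized reads.

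Among collagen peaks with both groups above 0, those with the lowest and the highest difference both lay on chromosome 4, and their centres differ in CG content. The sets did not differ in that direction. Per 100 bases the 21 lower collagen peaks held a median of 1.35 CG pairs and the 8 higher ones 1.91. Over all listed peaks the lower ones held 1.07 and the higher ones 1.11. The 200 bases around the centre of the Col27a1 peak (chr4:63214620-63214819, 10 CG pairs) and of the Col9a2 peak (chr4:121041293-121041492, 2 CG pairs) are given on the plus strand of GRCm38, with CG pairs in capitals.
Col27a1: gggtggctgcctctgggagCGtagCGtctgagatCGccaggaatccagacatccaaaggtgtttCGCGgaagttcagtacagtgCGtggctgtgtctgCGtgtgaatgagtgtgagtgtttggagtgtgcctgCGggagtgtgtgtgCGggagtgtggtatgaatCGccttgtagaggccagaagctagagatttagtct
Col9a2: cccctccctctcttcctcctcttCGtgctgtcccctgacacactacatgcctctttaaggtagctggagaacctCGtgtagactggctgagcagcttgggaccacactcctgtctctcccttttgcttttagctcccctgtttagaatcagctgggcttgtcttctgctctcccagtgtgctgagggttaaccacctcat
Both lie in the first kilobases of their gene, beside a start peak that was lower in the knockdown. Across the collagen genes 9 pairs of neighbouring peaks were less than 1 kb apart, in 5 genes, and 6 pairs had the same sign. Their differences were a median of 1.15 apart on the log2 scale.

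Network-forming collagens had 9 genes, 6 with a peak and 3 with a peak at the start. Of their 10 peaks 4 were lower and 1 higher, and the class ratio was -0.32. Type IV collagens, the scaffold of basement membranes, lie as 3 head-to-head gene pairs. The pair Col4a5 and Col4a6 had a peak over the start of Col4a6, within 1 kb of that of Col4a5 (chrX:141473610-141474390), with 6.82 normalized reads in the control and 17.3 in the knockdown, a difference of 1.34. This was the only peak of Col4a5. Col4a6 had 2 more, both lower, at 7.69 and 3.70 reads and at 5.62 reads and a listing of 0, so that its ratio was 0.13.

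Neither of the other pairs had a peak at its start. Col4a1 had 1 peak in an intron 12.2 kb inside (chr8:11300285-11300648), with 13.1 normalized reads in the control and a listing of 0 in the knockdown, a difference of at least 3.71 towards lower. The unlisted knockdown mean there comes to 0.985 reads. Its partner Col4a2 had no peak. Col4a3 had 2 weak intron peaks and a ratio of -0.92, with 5.20 and 1.00 reads at the lower peak, and Col4a4 had none.

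Type VIII collagens are short chains of vessel walls and of the cornea. Col8a2 had 2 strong domains, with 46.8 and 27.1 normalized reads at the start and 46.9 and 47.9 at 13.4 kb. The inner domain lay within 1 kb of the start of another Col8a2 transcript. The control means of the domains were equal to within 1 read, while the differences were -0.79 and 0.03. Col8a1 had 1 weak peak, with a ratio of 0.51.

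Beaded filament collagens, the type VI chains, had 6 genes, 4 with a peak and 1 with a peak at the start. Of their 9 peaks 3 were lower and none was higher, and the class ratio was -0.36. Col6a5 had 1 intron peak with 10.1 and 2.43 normalized reads, a difference of -2.05, the largest gene difference with both groups above 0. Col6a3 held 5 peaks that each touched a coding exon, 2 of them lower, by 1.18 and 1.24, and had a ratio of -0.36. Its lower peaks were the pair nearest to the 3′ end, at 69.9 and 76.1 kb. Col6a6 had a short peak of 337 bp at its start with 13.3 and 11.5 normalized reads. Joined by gene, this was the highest control mean per kb of peak, at 39.6 reads. Col6a4 had 2 peaks and a ratio of 0.21.

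Transmembrane collagens had 4 genes, 3 with a peak and 1 with a peak at the start. Col13a1, found at the neuromuscular junction and other contacts, had the most peaks of any collagen gene, 8, and the strongest. Its start peak (chr10:61977501-61980286, 2786 bp wide) had 82.0 normalized reads in the control and 78.4 in the knockdown, a difference of -0.06. Inside the gene 4 weaker peaks were lower by 1.27 to 2.32, and the peak at 133.6 kb was higher by 2.97, with 2.06 and 16.1 reads. The gene ratio was -0.26, while the start peak held over 50% of the gene's reads and was nearly level. Col25a1, a neuronal collagen first known from amyloid plaques, had no start peak and 3 weak peaks that were all higher in the knockdown, for a ratio of 0.99. One of the 3, downstream of the gene, had a control mean listed at 0, which was counted as 1 read, and 8.48 reads in the knockdown. Without that peak the ratio was 0.54. Col23a1 had 3 peaks and a ratio of -0.16. The class ratio was -0.11.

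The endostatin-type collagens (multiplexins) of basement membranes, Col15a1 and Col18a1, each had a wide start peak. Col15a1 had 56.7 and 59.8 normalized reads there and Col18a1 had 18.9 and 29.7, differences of 0.08 and 0.65. Their gene ratios were 0.03 and 0.47, and none of the 4 peaks was lower or higher by more than 1. Multiplexins were the class with a summed ratio above 0, at 0.16. Of the remaining genes, Col26a1 had 5 peaks, a start peak that went from 32.5 to 16.7 reads, and a ratio of -0.34. Col28a1 had 1 intron peak with a control listing of 0 and 9.12 reads in the knockdown, a difference of at least 3.19. Col7a1, the collagen of anchoring fibrils in skin, had no peak.

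Genes that process or bind collagens were read beside the shares over all protein-coding genes, which were 28.0% with a peak, 9.78% with one at the start and, among those with a peak, 13.8% lower and 17.6% higher. Of 27 genes for the modification, folding, cleavage and crosslinking of collagen, 9 (33.3%) had a peak and 5 (18.5%) had one at the start. By gene ratio 1 was lower and none higher. The lower gene was Loxl1, a crosslinking oxidase, at -2.46, while Lox was at -0.34, and the procollagen proteases Adamts2, Adamts14 and Tll2 were at -0.38, 0.45 and -0.06. Of 9 collagen receptors 2 had a peak, Itga11 at -0.67 and Lair1 at 1.49. Among 11 laminins, the other scaffold of basement membranes, 6 had a peak and 4 (36.4%) had one at the start. Lamb1 and Lamb3 were lower, at -1.15 and -1.05, and Lama5 was higher, at 2.00. Loxl1, Lair1, Lamb1, Lamb3 and Lama5 had 1 peak each, and among all protein-coding genes with 1 peak 20.5% were lower and 25.4% higher.

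Markers of the cell types that such cultures can hold were read in the same way. Of 8 neuronal markers 4 had a peak and 1, Slc17a7, had one at the start. A start peak was found for 4 of 6 oligodendrocyte-lineage markers, 2 of 4 endothelial markers, 2 of 5 fibroblast and mural markers, and for none of 5 astrocyte and 4 microglial markers. By gene ratio, those with a start peak were within 1 of the control, at -0.07 for Twist1 and 0.02 for Foxc1 of fibroblasts and mural cells, 0.03 for Cldn5 and 0.46 for Kdr of endothelial cells, 0.10 for Slc17a7 of neurons, and 0.07 for Olig2, -0.07 for Pdgfra and 0.23 for Sox10 of the oligodendrocyte lineage, with the exception of Olig1 at 1.73. Beyond 1 among markers with peaks elsewhere were Map2 at -3.02 and Tubb3 at 2.72 (neurons), Gfap at 1.78 (astrocytes), Cdh5 at -3.11 (endothelial cells) and Pdgfrb at 1.14 (mural cells), which had 1 peak each apart from Pdgfrb with 2. In bulk chromatin a change in the mark per cell and a change in the share of cells that carry it cannot be told apart, and the part of cell makeup in the collagen values was not tested.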

How the data were processed

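H3K27me3 ChIP-seq of 6 control and 6 NeuID knockdown libraries was processed by the authors, who used Bowtie2 to map single-end reads to mm10 and MACS2 to call broad peaks, and built the peak set with DiffBind and its DESeq2 option. Versions, the normalization of reads, the merging of peaks, duplicate removal and input subtraction were not given in the sources used here. The deposited values are log2 means of normalized reads per peak, over all libraries and per group. The authors also deposited a fold, a p-value and an FDR for each peak, and these 3 columns of their own comparison were not used. Of per-sample columns, 0 were left unused, and values of single libraries were not analysed here.

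Peaks were joined to GENCODE M21 genes with pandas 2.3.3 and bases were read with pysam 0.24.0. The steps were tested on simulated data. The members, lists and limits were chosen with earlier results of these data known. Every collagen gene with a peak is named. Single peaks are given for gene starts, for the widest peak of a gene, and for the 5 lowest and 5 highest differences with both groups above 0. Other single peaks named in the text were chosen after their values were seen. Promoter bases are from RefSeq (GRCm38.p6). Alternatives covered joining, filters, window, centring and limits.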

Additional observations from a re-analysis of the deposited data

How the results depend on the processing

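With no value per library, no replicate could be left out. No paired analysis was possible because the table carries 1 mean per group. The 3 lower and 2 higher genes became 5 lower and 2 higher with the median of a gene's peaks, and 6 and 3 with its widest peak. They became 1 and 1 (of 28 genes) without peaks listed at 0, and 0 and 0 (of 10) with an overall mean of at least 4. With the gene body alone they were 3 and 1 (29 genes, where Col4a5 lost its peak). After centring they were 3 and 3, and at a limit of 0.5 they were 8 and 5. The 21 lower and 8 higher peaks became 0 and 0 with an overall mean of at least 4 or a width of at least 1 kb, and 35 and 17 at a limit of 0.5. The median difference of -0.203 was -0.157 without peaks listed at 0, -0.603 with an overall mean of at least 4, -0.634 with at least 1 kb, -0.214 in gene bodies and -0.183 after centring. Of the 16 genes with a start peak, 10 had one over the first base itself, and 18 had one within 2 kb. The sign of a gene's ratio changed in 9 of 31 genes with the median of its peaks, in 6 with the widest peak, in 3 of 29 (Col1a1, Col24a1 and Col6a4) with the gene body and in 1 of 10 (Col9a2) with strong peaks. Beyond 1 came Col25a1 (higher) with centring, and Col4a3 and Col4a6 (both lower) with the median. With the widest peak these were Col1a1, Col5a1 and Col19a1 (lower) and Col4a6 (higher). The 5 genes beyond 1 each rest on 1 peak with few normalized reads.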
